A study of Homo sapiens with 6 samples.

Results

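The genes described here are 4 heat shock chaperones of the cytosol and the mitochondrion, HSPH1, HSPA8, HSPD1 and DNAJA1. They were taken by symbol from the deposited table of entries that differ between 1% and 20% oxygen, and all 4 have 1 entry each among its 2681 entries. RNA was sequenced from Hep3B, an established line of human hepatocellular carcinoma. The groups were cells kept at 1% oxygen for 24 hours (hypoxia, n = 3) and cells kept at 20% oxygen for the same 24 hours (normoxia, n = 3). All 6 samples carry the genotype label WT and also a treatment label of genetic modification, with no alteration named, and the extraction text speaks of subclones, so whether 1 clone or several were grown is not given. Nothing says that the replicates were separate cultures, so p-values measure the spread between these samples only, which may be technical.

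Chaperones bind polypeptides that are not yet folded, or that have lost their fold, and keep them from aggregating. HSPA8 is the constitutive cytosolic member of the HSP70 family, which holds and releases its clients in a cycle of ATP binding and hydrolysis. DNAJA1 is a J-domain co-chaperone that brings clients to HSP70 and stimulates the hydrolysis step, and HSPH1, an HSP110 protein, acts as a nucleotide exchange factor that resets HSP70 for the next round. HSPD1 is the mitochondrial chaperonin, a barrel in whose chamber imported matrix proteins fold, with HSPE1 as its lid. Many such genes are driven by the transcription factor HSF1, which binds heat shock elements, inverted repeats of the letters GAA.

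All 4 chaperone transcripts were lower at 1% oxygen. HSPH1 fell 3.47-fold, HSPA8 2.57-fold, HSPD1 2.04-fold and DNAJA1 2.02-fold, and for each of them every hypoxia library lay below every normoxia library. Of all 2675 entries analysed, 43.1% had hypoxia libraries wholly below normoxia libraries in this way, and 99.6% did not overlap in one direction or the other. The HSP70 itself and its exchange factor stood at a smaller part of their normoxia mean (38.9% and 28.8%) than the J-domain partner and the chaperonin (49.6% and 49.1%). The table lists only entries with an authors' false discovery rate under 0.01 and an absolute log2 fold change over 1, so the fall of each gene is what placed it there and a call is no independent evidence. Of the same entries, 43.3% were called lower, 56.7% higher and 100% in either direction, by the edgeR quasi-likelihood test at an adjusted p of 0.05.

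Sequences upstream of the transcript starts are given because genes of this class are known targets of HSF1, and the 4 moved in 1 direction. The RefSeq promoter table (GRCh38.p14) matched all 4 genes by symbol, with 2 starts for HSPD1. Letters are in the direction of the gene and end at the base before the start. Capitals mark the heat shock element letters GAANNTTC or TTCNNGAA, each of which reads the same on both strands. In the first HSPD1 stretch they mark instead overlapping matches, 1 on each strand, to ACGTG. These letters are a form of the core of the hypoxia response element, which HIF transcription factors bind.
HSPH1, chr13:31162389-31162638, minus strand: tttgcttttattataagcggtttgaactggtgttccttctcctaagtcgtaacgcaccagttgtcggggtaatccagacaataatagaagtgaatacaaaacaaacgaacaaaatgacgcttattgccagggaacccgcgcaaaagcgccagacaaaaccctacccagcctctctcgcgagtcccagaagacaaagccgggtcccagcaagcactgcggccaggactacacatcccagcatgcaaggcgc
HSPA8, chr11:123062137-123062386, minus strand: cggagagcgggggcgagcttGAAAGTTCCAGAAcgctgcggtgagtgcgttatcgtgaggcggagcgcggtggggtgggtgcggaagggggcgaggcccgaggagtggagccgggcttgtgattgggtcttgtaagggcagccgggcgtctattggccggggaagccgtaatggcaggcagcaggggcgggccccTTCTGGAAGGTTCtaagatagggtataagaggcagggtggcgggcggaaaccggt
HSPD1, start 1, the 104 bases up to HSPE1, chr2:197500275-197500378, minus strand: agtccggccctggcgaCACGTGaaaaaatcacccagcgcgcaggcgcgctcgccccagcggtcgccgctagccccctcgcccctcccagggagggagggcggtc
HSPD1, start 2, chr2:197499841-197500090, minus strand: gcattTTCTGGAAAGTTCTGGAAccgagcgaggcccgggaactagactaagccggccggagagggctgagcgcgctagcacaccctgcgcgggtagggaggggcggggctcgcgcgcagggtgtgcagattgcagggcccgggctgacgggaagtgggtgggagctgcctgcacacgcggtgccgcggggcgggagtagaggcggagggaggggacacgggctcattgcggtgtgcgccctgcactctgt
DNAJA1, chr9:33025023-33025272, plus strand: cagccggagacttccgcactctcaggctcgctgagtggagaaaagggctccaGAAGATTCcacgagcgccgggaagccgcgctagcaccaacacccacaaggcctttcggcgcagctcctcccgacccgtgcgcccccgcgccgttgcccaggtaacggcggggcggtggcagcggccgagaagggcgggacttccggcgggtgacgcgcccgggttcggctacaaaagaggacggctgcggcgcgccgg

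HSPA8 held 2 pairs of overlapping heat shock element matches, 1 from base -230 to -218 and 1 from base -55 to -43 relative to the start. The second HSPD1 start had 3 overlapping matches between bases -245 and -228, and DNAJA1 had 1 match from base -198 to -191. DNAJA1 also had overlapping matches just after its start, from base 3 to 15, in the stretch gcgGAACTTTCCAGAAcgctcg. The HSPH1 window held none of these letters. In the 250 bases before the start, 3 of the 4 genes thus held a match, against 14.0% of the 27305 genes of the RefSeq table. The 4 belong to a list of textbook HSF1 targets, of which 8 of 12 genes without an entry also held one. Such a match is therefore not particular to the 4. Among entries with a promoter there, 11.6% of those lower in hypoxia held a match, against 13.5% of those higher. Of the other lower entries of the chaperone lists described below, 20% held one, against 18.5% of the genes of those lists without an entry. Whether the element has a part in the fall was not tested. The letters ACGTG were found only before HSPD1 among the 4, and 21.7% of all genes held them. Other forms of the hypoxia response element core were not searched. These are matches of letters and not sites shown to be bound.

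**Figure D1:**
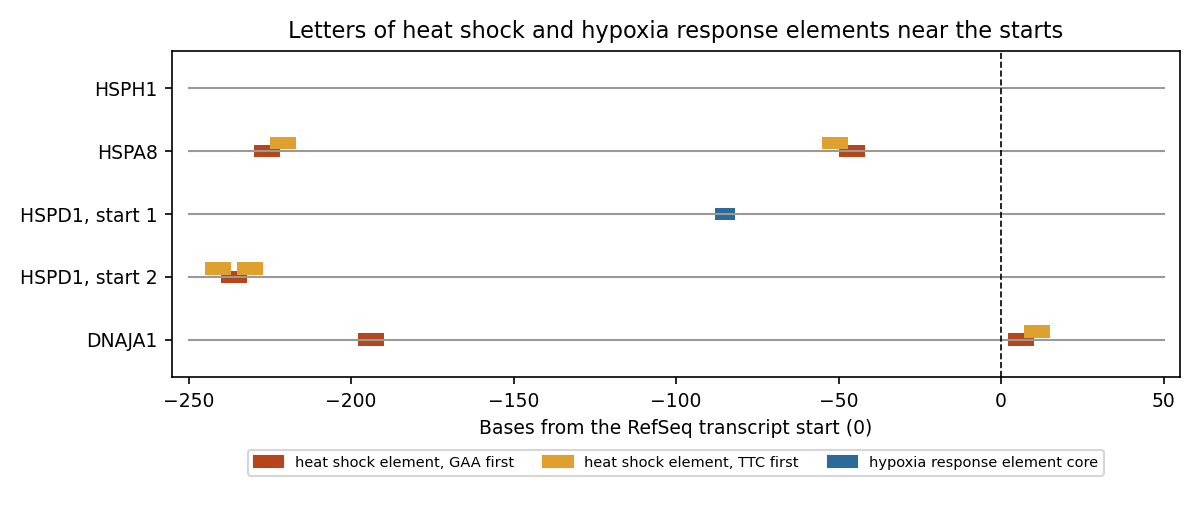
Position of motif letters around the RefSeq transcript starts of the 4 chaperone genes, in bases from the start (x axis), 1 line per start. HSPA8, the second HSPD1 start and DNAJA1 hold heat shock element letters, and the HSPH1 line is empty. The first HSPD1 start holds ACGTG, the only form of the hypoxia response element core that was searched.

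HSPH1 is encoded on chromosome 13, from 31134974 to 31162388 on the minus strand, HSPA8 on chromosome 11, from 123057489 to 123063230 on the minus strand, HSPD1 on chromosome 2, from 197486581 to 197516737 on the minus strand, and DNAJA1 on chromosome 9, from 33025211 to 33039907 on the plus strand (GENCODE 29, GRCh38). For the authors' own build and annotation, the sources used here give nothing. HSPA8 and HSPD1 have processed pseudogenes, and 15.4% and 25.0% of the 50-base words in their longest coding transcripts also occur in other annotated genes, nearly all of them pseudogenes. For DNAJA1 that share was 1.5%, and for HSPH1 it was 0%. How reads common to a gene and its copies were counted is not given, so the levels of HSPA8 and HSPD1 are less certain than those of HSPH1 and DNAJA1. HSPE1 lies head to head with HSPD1, 104 bases away in RefSeq, and in GENCODE 29 it overlaps 281 exonic bases (6.62%) of HSPD1 on the opposite strand. HSPE1 itself has no entry among those analysed here.

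Across the whole table, counts over listed entries came to between 9905692 and 10134230 in the hypoxia libraries and between 5474597 and 6128947 in the normoxia libraries. Those totals cover only entries selected as changed and are not depths. Replicates of a group differed beyond counting noise (chi-square over its degrees of freedom 13.1 to 268), and none was treated as a copy. All 9 oxygen response sentinels had an entry and were higher in hypoxia, with VEGFA at 12.5-fold. Of 11 hepatocyte and hepatoma markers 6 had an entry, with a summed level of 5.63 to 5.85 FPKM in hypoxia and 11.2 to 12.5 FPKM in normoxia (FPKM, fragments per kilobase of transcript scaled to the mapped fragments of the library). Of these 6, APOB, AFP, FGB and ALB were lower in hypoxia, while TF (3.17-fold) and AHSG (5.16-fold) were higher. In normoxia the 6 averaged only 30.7 (AHSG) to 410 (APOB) counts divided by the library's scale, against 59625 for HSPA8. Whether such levels are usual for the named line was not tested. Markers of other cells were checked too: 5 of 7 for cholangiocytes (76.4 to 115 FPKM in hypoxia, 23.3 to 35.0 FPKM in normoxia), 2 of 6 for endothelium (28.9 to 63.5 and 2.55 to 7.33 FPKM) and 1 of 7 for leukocytes (114 to 127 and 36.0 to 38.8 FPKM) had an entry, and 0 of 7 for fibroblasts did. None of these listed markers was at 0 in a whole group, and their part in the chaperone values was not tested.

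HSPA8, the most abundant of the 4, had 24049, 22452 and 23129 normalized counts in the hypoxia libraries, against 59334, 59310.4 and 60229 in the normoxia libraries (replicates 1 to 3, counts divided by the library's scale). The groups were far apart and, on this scale, the libraries within each were close together. The coefficient of variation was 3.45% in hypoxia and 0.878% in normoxia. In the authors' FPKM values the replicates spread more, at 256, 205 and 254 in hypoxia and 694, 738 and 801 in normoxia. The log2 fold change was -1.36 (SE 0.12), with an adjusted p of 3.66e-05 by the edgeR quasi-likelihood test, Benjamini-Hochberg adjusted over 2675 entries. In raw counts the hypoxia libraries held 18943 to 23913 HSPA8 reads and the normoxia libraries 60528 to 66737, so counting error was small beside the difference. In bulk RNA, less RNA per cell and fewer cells that express a gene cannot be told apart.

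HSPH1, the exchange factor, had 1456, 872 and 1655 normalized counts in hypoxia replicates 1 to 3, against 3735, 4710.3 and 5378 in normoxia replicates 1 to 3. It showed the deepest fall of the 4 and also the widest spread, with a coefficient of variation of 30.6% in hypoxia and 17.9% in normoxia. The lowest value by far was that of hypoxia replicate 2. The log2 fold change was -1.79 (SE 0.26, edgeR adjusted p = 0.000325), and without hypoxia replicate 2 it was -1.57 (edgeR adjusted p = 0.000112). HSPH1 ranked 256 of 1157 lower entries by the size of its fall.

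HSPD1, the mitochondrial chaperonin, had 18068, 16279.5 and 16537 normalized counts in hypoxia replicates 1 to 3, against 34530.3, 34614 and 34419.9 in normoxia replicates 1 to 3. On the library scale used here the normoxia libraries were almost level, with a coefficient of variation of 0.282%. In the authors' FPKM values they were less so, at 394, 433 and 451 in normoxia replicates 1 to 3. The closeness of the replicates thus depends on the scale. Its log2 fold change was -1.03 (SE 0.12, edgeR adjusted p = 0.000116), just past the limit of the table, and was -0.58 with each library's GC trend taken out.

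DNAJA1, the J-domain partner, had 7864, 6883 and 7503 normalized counts in hypoxia replicates 1 to 3, against 14069.8, 15306 and 15524 in normoxia replicates 1 to 3. Its groups too were well separated. The log2 fold change was -1.01 (SE 0.12, edgeR adjusted p = 0.000142), and -0.48 with the GC trends taken out. HSPD1 and DNAJA1 ranked 1120 and 1137 of the 1157 lower entries by size of fall, so both stood close to the point below which a gene has no entry. In the authors' deposited table the log2 fold changes are -1.80 for HSPH1, -1.36 for HSPA8, -1.03 for HSPD1 and -1.01 for DNAJA1.

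**Figure D2:**
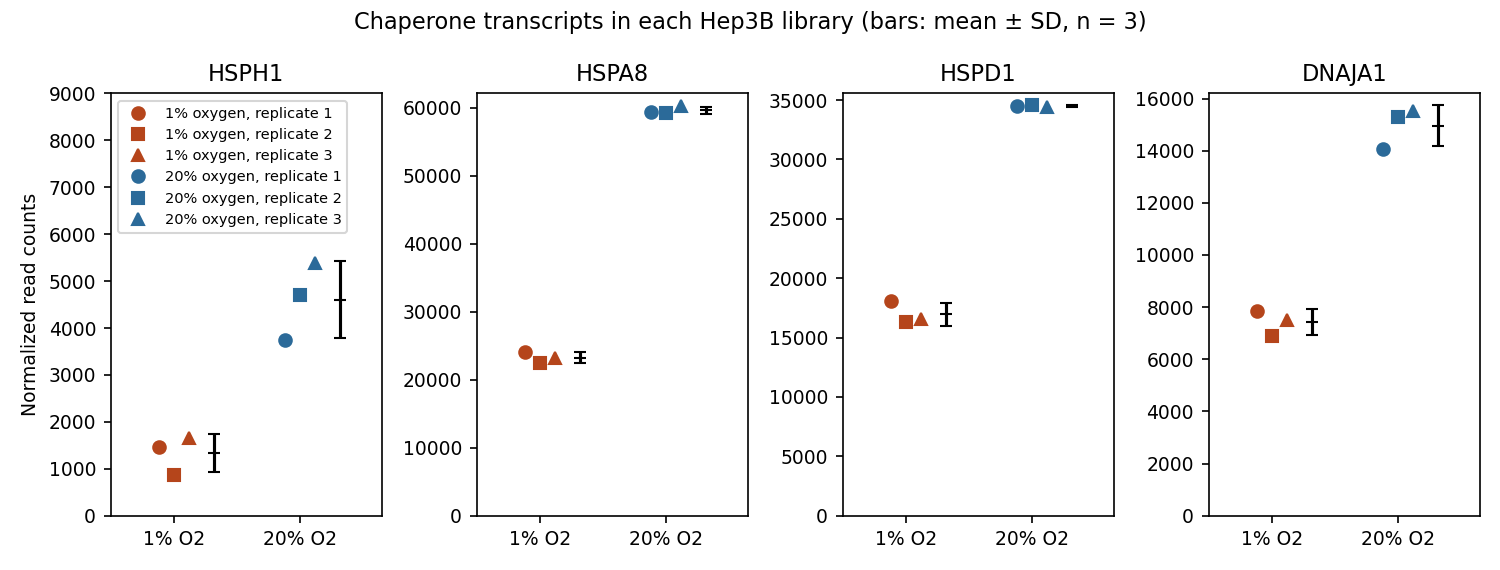
Normalized read counts (y axis, from 0) of the 4 chaperone genes in each library, with hypoxia libraries (1% oxygen) left of normoxia libraries (20% oxygen) and the mean ± SD of each group (n = 3). The groups do not overlap for any of the 4 genes, and hypoxia replicate 2 is the lowest HSPH1 value, at 872.

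The fold changes depend on the scale given to each library. The scale used here was recovered from the authors' own fold changes, since the table holds no unchanged genes to set one. With library totals recovered from the FPKM values, the median log2 fold change of all entries moved by -0.27. The 4 log2 fold changes then became -2.05 for HSPH1, -1.63 for HSPA8, -1.29 for HSPD1 and -1.28 for DNAJA1. Relative to that shift they were -1.78, -1.36, -1.02 and -1.01. A change of scale moves all entries nearly alike, so this return to the first values was fixed in advance and is no check of them. With DESeq2 size factors taken over the listed entries, 53.7% of the called entries were lower in hypoxia, against 43.3% with the recovered scale. The number called lower was 1157 with either, and the share moved because 997 entries were called higher with DESeq2 size factors, against 1518 with the recovered scale.

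Base composition also moved with the values. The longest transcripts of the 4 genes have a GC content of 40.0% for HSPH1, 47.0% for HSPA8, 44.2% for HSPD1 and 41.7% for DNAJA1, below the median of 51.4% over the 2485 entries with a known one. Among the 624 entries with a GC content in the range of the 4 genes, 58.5% were lower in hypoxia, against 45.1% of the 2485. Within the hypoxia group, the deviation of replicate 2 from the group mean rose with GC content (Pearson's r = 0.61 across 2208 entries, a description since entries share the libraries), as did that of normoxia replicate 1 within its group (r = 0.56). Both deviations fell with log2 transcript length (r = -0.49 and -0.45), and HSPH1 has the longest transcript of the 4, at 5191 bases. Hypoxia replicate 2 and normoxia replicate 1 were also the libraries with the lowest HSPH1 value of each group. The part of composition or length in that was not tested. With an offset that takes out each library's GC trend, an alternative chosen after the data were seen, the log2 fold changes were -1.23 for HSPH1, -1.04 for HSPA8, -0.58 for HSPD1 and -0.48 for DNAJA1. All 4 kept their direction and their call (largest edgeR adjusted p = 0.00355), but so wide a call says little of them, since 2573 of the 2675 entries were called. The values of HSPD1 and DNAJA1 were then below the limit of the table. That trend was drawn from entries selected as changed, so it also holds part of the difference between the groups.

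Levels per transcript length can be compared between genes. In FPKM of the authors' table, HSPA8 averaged 238 ± 29.2 in hypoxia and 744 ± 54.1 in normoxia (SD, n = 3 each), HSPD1 174 ± 22.5 and 426 ± 29.1, DNAJA1 78.1 ± 11.9 and 189 ± 22.7, and HSPH1 6.65 ± 2.45 and 27.7 ± 6.51, in the same order of groups. The order HSPA8, HSPD1, DNAJA1, HSPH1 held in every library, and in each group neighbours in that order did not overlap, although the lowest HSPA8 value in hypoxia (205 FPKM) lay only slightly above the highest HSPD1 value there (194 FPKM). Together the 4 transcripts came to 423 to 544 FPKM in the hypoxia libraries, against 1274 to 1496 FPKM in the normoxia libraries. By mean FPKM among the 2675 entries, HSPA8 ranked 69 in hypoxia and 13 in normoxia, DNAJA1 213 and 49, and HSPH1 1132 and 453. In FPKM lost between normoxia and hypoxia, HSPA8 ranked 4 and HSPD1 8 of all entries, with drops of 506 and 252 FPKM.

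**Figure D3:**
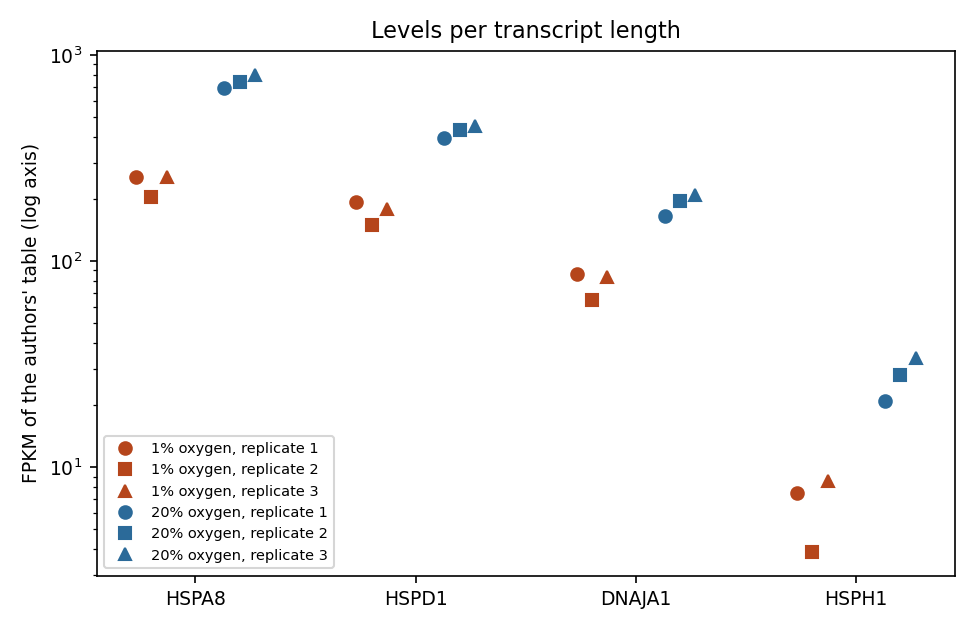
FPKM of the authors' table (log axis) for the 4 chaperone genes in each library, hypoxia (1% oxygen) left of normoxia (20% oxygen). HSPA8 lies highest and HSPH1 lowest in both groups, and each gene's hypoxia points lie below its normoxia points.

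The make-up of the chaperone pool was compared by ratios within each library, which need no library scale. HSPA8 had 133.1%, 137.9% and 139.9% of the HSPD1 count in hypoxia replicates 1 to 3, against 171.8%, 171.3% and 175.0% in normoxia replicates 1 to 3. It had 306%, 326% and 308% of the DNAJA1 count in hypoxia, against 422%, 388% and 388% in normoxia. Both ratios were lower in every hypoxia library than in any normoxia library, with mean log2 differences of -0.33 and -0.35. HSPH1 had 18.5%, 12.7% and 22.1% of the DNAJA1 count in hypoxia, against 26.5%, 30.8% and 34.6% in normoxia, a log2 difference of -0.82. Its ratio to HSPD1 was likewise lower in every hypoxia library, with a log2 difference of -0.80.

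HSPH1 had 6.06%, 3.89% and 7.15% of the HSPA8 count in hypoxia, against 6.29%, 7.94% and 8.93% in normoxia. That ratio overlapped between the groups (log2 difference -0.47, and -0.22 without hypoxia replicate 2). HSPD1 to DNAJA1 also overlapped, at 229.7%, 236.5% and 220.4% in hypoxia and 245.4%, 226.2% and 221.7% in normoxia, with a log2 difference of -0.01 that was smaller than the SD in either group (0.05 in hypoxia and 0.08 in normoxia). Each of the 6 pairs was tested with an exact permutation test (two-sided, 3 against 3), whose smallest possible p is 0.1. The 4 separated ratios reached that p (0.15 after Benjamini-Hochberg adjustment over the 6), HSPH1 to HSPA8 gave an exact p = 0.2 (adjusted 0.24) and HSPD1 to DNAJA1 an exact p = 0.8, so the design allows none to pass 0.05.

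**Figure D4:**
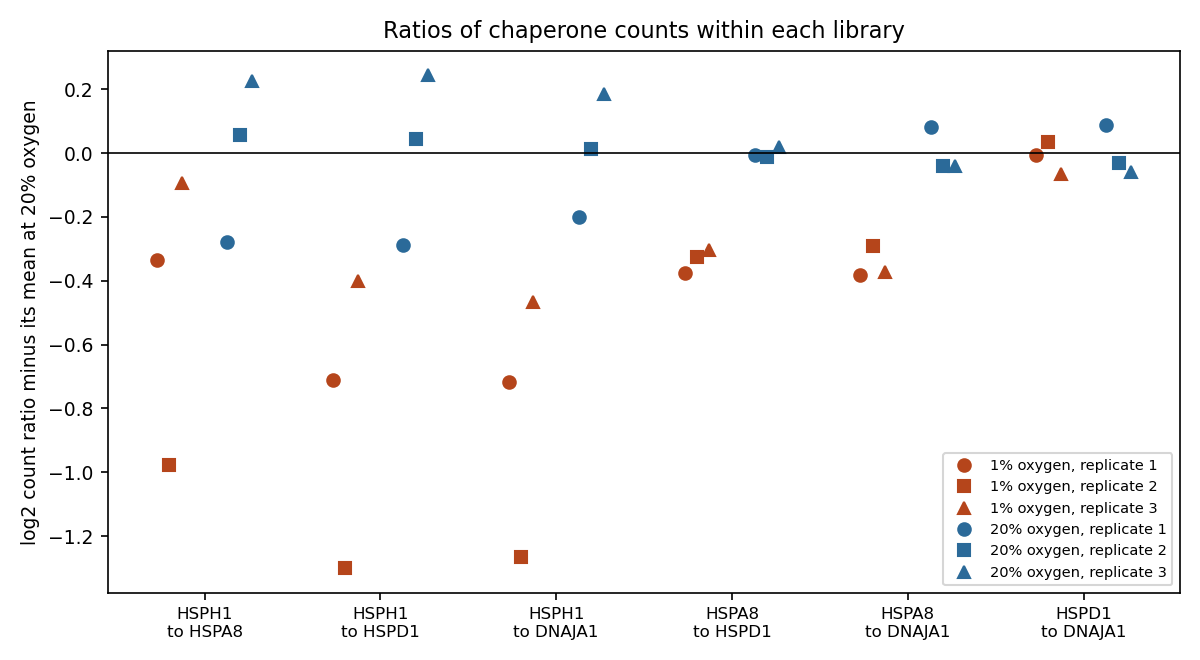
Ratio of 2 chaperone counts within each library, as log2 minus the mean of the normoxia libraries (y axis), for the 6 pairs, hypoxia (1% oxygen) left of normoxia (20% oxygen). The ratios of HSPH1 and HSPA8 to HSPD1 and to DNAJA1 are lower in every hypoxia library, and those of HSPH1 to HSPA8 and HSPD1 to DNAJA1 overlap.

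Over the lists of chaperone, mitochondrial import, proteasome and heat shock factor genes, 36 of 204 genes had an entry, 7 higher and 29 lower, a lower share of 80.6% against 43.3% of all 2675 entries. Without the 4 chaperones described here, 32 of 200 had an entry, 7 higher and 25 lower, a lower share of 78.1%. The median log2 fold change was -1.16 with and without the 4, against 1.11 over all entries. Since no entry lies between -1 and 1, the sign of such a median only tells which direction holds more entries. The other 168 have no entry, which does not tell a small change from none or from lack of expression.

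In the HSP70 and HSP110 family, 7 of 16 genes had an entry, 1 higher and 6 lower. HSPA6, a strictly stress-inducible HSP70, had 5.03, 23.7 and 6.02 normalized counts in hypoxia, against 70.0, 65.7 and 33.4 in normoxia, and fell by 2.31 on the log2 scale. The log2 fold changes were -1.59 for the HSP110 relative HSPA4L, -1.60 for the ribosome-associated HSPA14 and -1.30 for the HSP110 protein HSPA4. HSPA4 and HSPA1L were picked out after their values were seen. HSPA1L was the higher one, at 86.5, 98.4 and 78.2 normalized counts in hypoxia and 32.2, 53.9 and 31.6 in normoxia. The inducible genes HSPA1A and HSPA1B and the mitochondrial HSPA9 had no entry.

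Of 47 J-domain genes 5 had an entry, 1 higher and 4 lower. DNAJC22 and DNAJC2, a ribosome-associated co-chaperone, had log2 fold changes of -1.22 and -1.08, slightly below that of DNAJA1. DNAJB2 was higher in hypoxia, at 2530.3, 3679 and 2343 normalized counts against 1037, 883 and 727 in normoxia (log2 fold change 1.69). Among 12 co-factors of HSP70, BAG2, which restrains the ubiquitin ligase CHIP, was the 1 entry and fell by 1.70.

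Among 14 chaperonin genes, 4 had an entry, 0 higher and 4 lower. Beside HSPD1 these were CCT6A, CCT3 and CCT5, subunits of the cytosolic chaperonin that folds actin and tubulin, with log2 fold changes of -1.31, -1.27 and -1.18. Of 15 genes of HSP90 and its co-chaperones 6 had an entry, 0 higher and 6 lower. The log2 fold change was -1.74 for the co-chaperone CHORDC1 and -1.56, -1.49 and -1.12 for the immunophilins FKBP5, FKBP4 and PPID. The HSP90 genes HSP90AA1 and HSP90AB1 had no entry.

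On the mitochondrial side 6 of 36 genes of import and protein quality control had an entry, 0 higher and 6 lower, HSPD1 with the smallest fall. The log2 fold change was -1.68 for TOMM40, the import pore of the outer membrane, -1.23 for the mitochondrial HSP90 gene TRAP1, -1.21 for the outer membrane subunit TOMM5 and -1.09 for the intermembrane space chaperone TIMM8A. Of 33 proteasome genes, PSMD11 and PSMD1 had an entry, with log2 fold changes of -1.13 and -1.12.

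Of 10 small heat shock proteins 2 had an entry, both higher in hypoxia, as were 56.7% of all entries. HSPB7 had 215, 258 and 190 normalized counts in hypoxia, against 9.46, 5.88 and 16.2 in normoxia (20.6-fold), and CRYAB was 2.38-fold higher. Of 23 chaperone genes of the endoplasmic reticulum 2 had an entry, the oxidase ERO1A 5.84-fold higher and SDF2L1, which fell by 1.26 on the log2 scale. Of 9 prefoldin and nascent chain genes 0 had an entry.

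Heat shock factors and textbook HSF1 targets had 13 of 26 genes listed, 3 higher and 10 lower, with a median log2 fold change of -1.11. The 4 chaperones belong to that list, as do CHORDC1, HSPA4L and FKBP4. CRYAB and the factor HSF4 (2.18-fold, named after its value was seen) were among the higher ones. HSF1 had no entry. Heat shock element letters were found in the 250 bases before the start of 5 of 9 lower genes of that list with a promoter in the table, and of 8 of 12 without an entry. The 9 include the 4 chaperones, and 3 of the 5 are HSPA8, HSPD1 and DNAJA1, already counted above.

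**Figure D5:**
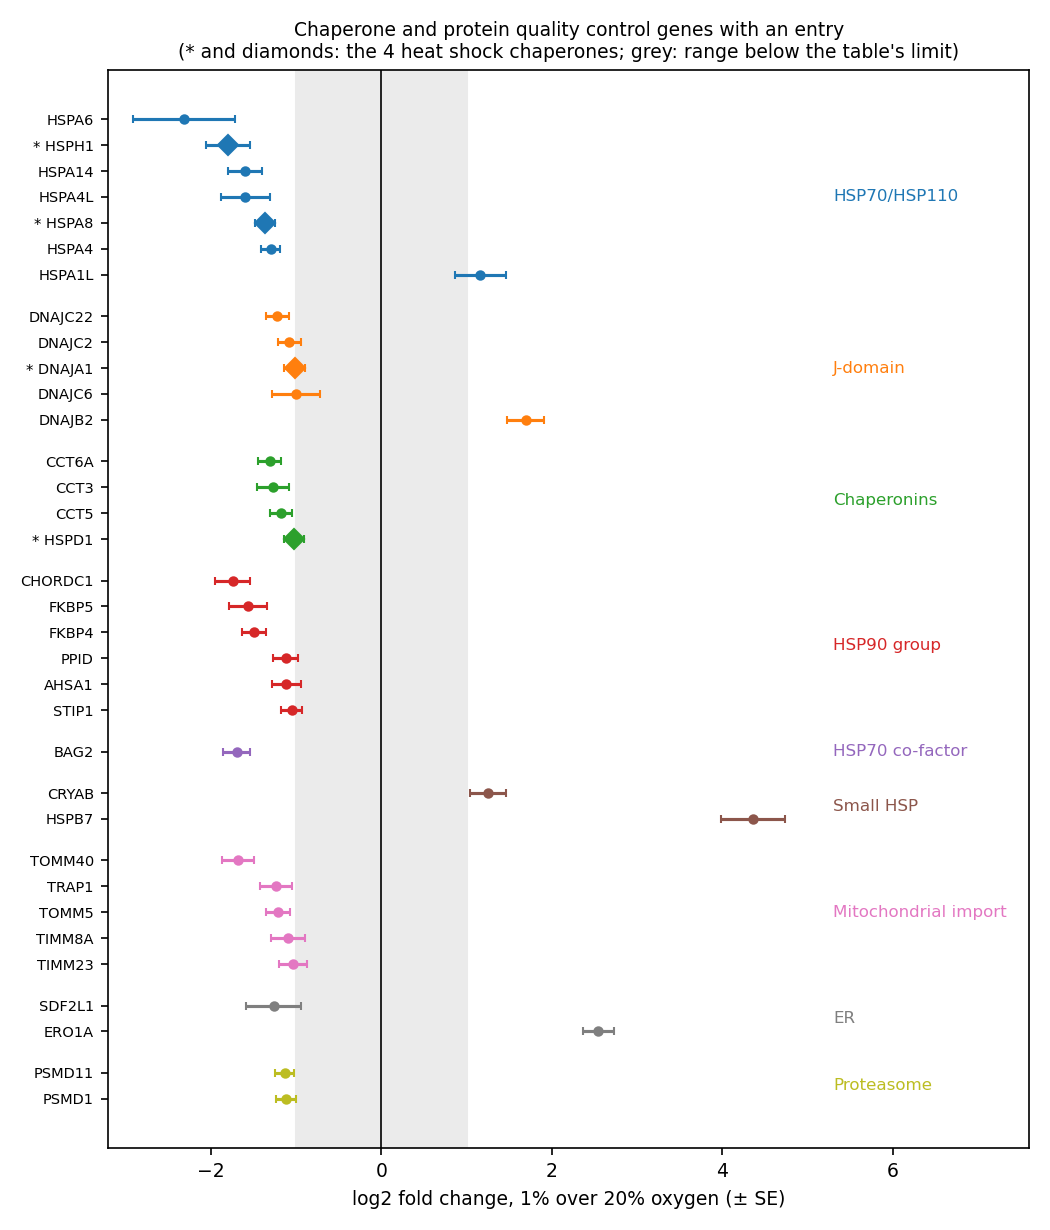
Log2 fold change of hypoxia (1% oxygen) over normoxia (20% oxygen) with its SE (x axis) for the chaperone, import and proteasome genes with an entry, by list, with diamonds for HSPH1, HSPA8, HSPD1 and DNAJA1. Genes of the HSP70, chaperonin, HSP90 and import lists lie left of 0 except HSPA1L, and the 2 small heat shock proteins lie right of it.

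Likeness was measured as the root mean square distance between log2 normalized counts over the 6 libraries, each centred on its own mean, against 2193 entries with a mean of at least 100 normalized counts. HSPD1 and DNAJA1 lay close to each other (0.05), with DNAJA1 at rank 11 from HSPD1 and HSPD1 at rank 5 from DNAJA1. Nearest to HSPD1 were DNTTIP2, DPH3 and MCM2 (0.03 to 0.04), and nearest to DNAJA1 were LSG1, SEH1L and UBE2G2 (0.03 to 0.05). Nearest to HSPA8 were PDCD11, FARSB and FAM102A (0.03 to 0.05). HSPH1 stood apart in distance from the other 3 chaperones (0.38 to 0.51), though its Pearson's r with them was 0.95 to 0.97. Its nearest entries were MPP6, PRMT3 and PLPP3 (0.04 to 0.07), with log2 fold changes of -1.84, -1.75 and -1.72. With 2 groups, this distance largely follows the difference in fold change, so a near entry is mainly one with a like fall. In 15 of the 29 lower entries of the chaperone lists, hypoxia replicate 2 was the lowest hypoxia library, a share of 51.7% against 47.7% of all 1157 lower entries.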

How the data were processed

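RNA was measured by sequencing in 3 hypoxia and 3 normoxia samples of Hep3B. TRIzol was used for extraction and a SMARTER mRNA-seq kit for the libraries, per the labels' protocols. An aligner, counting tool, strand setting, build or annotation is not given in the sources used here. Whole-number counts and FPKM values were deposited by the authors, per the file headers, with their FDR (an adjusted p-value) and log2 fold change for each entry. Deposited FDR values reach 0.00999 at most, and no deposited log2 fold change lies nearer to 0 than 1.00. Sample columns were matched to titles by oxygen level and number.

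Of 2683 rows, 2 held broken text and in 6 the authors' log2 fold change lay more than 1 away from the one their counts give. These were left out, which left 2675 entries. Library scales were recovered from the authors' log2 fold changes and counts over 1442 entries that exceed 200 counts everywhere (median absolute residual 0.000199). Fold changes on this scale follow the authors' own and are no independent check of them. The test was edgeR 4.0.16 quasi-likelihood (R 4.3.3, filterByExpr, which removed 0 entries) with Benjamini-Hochberg adjustment at 0.05, with the SE taken as the size of the log2 fold change divided by the root of F. It was tested on simulated data. Alternatives used TMM, DESeq2 1.42.0, limma 3.58.1 on log2(FPKM + 1) or log2(FPKM + 0.1), a replicate block, a GC offset and leaving out each library.

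The genes and lists were chosen with earlier results of these data known. Named genes were the 4 chaperones, up to 4 entries a list, by size of change, and the 3 nearest entries to each chaperone. 1 gene of the lists is counted but not reported by itself here. Depth is unknown, since the table holds only part of each library. GC content, transcript length and shared 50-base words come from GENCODE 29 transcripts.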

Additional observations from a re-analysis of the deposited data

How the results depend on the processing

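All 64 alternative values of the 4 log2 fold changes kept their direction and their call. That says little of the 4, since the alternatives called 2154 (DESeq2 size factors) to 2675 entries. The fit without a filter on low counts repeats the main one, as the filter removed 0 entries. Over these alternatives HSPH1 ranged from -2.59 to -1.23, HSPA8 from -2.14 to -1.04, HSPD1 from -1.80 to -0.58 and DNAJA1 from -1.80 to -0.48, with the top of each range from the GC offset and the bottom from DESeq2 size factors. TMM over the listed entries gave -2.32, -1.89, -1.56 and -1.54, and DESeq2 size factors -2.59, -2.14, -1.80 and -1.80. These scalings assume that most entries do not change, and moved the median of all entries by -0.53 and -0.78. Relative to those shifts the TMM values were -1.79, -1.36, -1.02 and -1.01, which again follows from moving all entries nearly alike and is no check. With DESeq2 size factors 997 entries were called higher and 1157 lower (53.7% lower), against 1518 and 1157 with the recovered scale (43.3%). Leaving out each library gave -1.98 to -1.57 for HSPH1, -1.39 to -1.34 for HSPA8, -1.07 to -0.997 for HSPD1 and -1.06 to -0.96 for DNAJA1, with 2665 to 2675 entries called.

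The replicate block gave log2 fold changes of -1.83, -1.36, -1.03 and -1.01 and changed no call (2675 entries called). Whether the numbers pair the samples is not given. Deviations of same-numbered libraries correlated at -0.48, -0.17 and 0.57, and hypoxia replicate 2 correlated best with normoxia replicate 1 (0.69). Deviations also rose with GC content in those last libraries (r = 0.61 and 0.56). The correlations therefore cannot tell whether a number marks a shared culture or day. The ratio of HSPD1 to DNAJA1 changed sign when 1 library was left out, over a range of log2 differences from -0.0422 to 0.0310, with 0.0139 without hypoxia replicate 3 and 0.0310 without normoxia replicate 1. The difference in that ratio was close to 0 to begin with. Leaving out 1 library gave -0.66 to -0.22 for HSPH1 to HSPA8. Genes that fell by less than the limit of the table cannot be seen at any depth here.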

Other observations

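The authors' table places 151 entries in the functional class of protein turnover and chaperones, which also holds ubiquitin ligases and proteases. Of these, 68 were higher and 83 lower in hypoxia, a lower share of 54.97% against 43.3% of all entries. By protein family, the table labels 7 entries as Hsp70 protein, 1 higher and 6 lower, and 4 as chaperonins of the TCP-1/cpn60 family, 0 higher and 4 lower.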
